A study of Mus musculus with 9 samples.

Results

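The genes described here are the mouse members of 5 solute carrier families that move amino acids across membranes, Slc1, Slc7, Slc36, Slc38 and Slc43. They were taken by symbol alone, as every gene named Slc1a, Slc7a, Slc36a, Slc38a or Slc43a followed by a number, which gave 40 of the 23284 genes counted. Slc7 has 15 members, Slc38 has 11, Slc1 has 7, Slc36 has 4 and Slc43 has 3. Gastrocnemius, the large calf muscle, was sequenced from 3-month-old mice of a mixed 129/C57/BL6 background after exercise. The 4 knockout libraries came from mice with loxP-flanked Gprc6a (written Grpc6afl/fl in the genotype labels) and Mck-Cre, a recombinase driven by the muscle creatine kinase promoter, which is active in striated muscle fibres. The 5 control libraries came from mice with the same floxed gene and no Cre. Effects of Cre itself and of the deletion cannot be told apart, and no rested muscle was included. Whether libraries of a group are different animals is not given in the labels; the spread behind each p-value is that between libraries and may be technical.

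Gprc6a encodes a receptor that senses basic and small neutral amino acids, and transporters of these families set the amino acid supply of the muscle fibre. The Slc38 proteins carry glutamine and other small neutral amino acids with sodium. Several Slc7 proteins pair with a heavy chain, the product of Slc3a2, and exchange one amino acid for another, while others of that family carry arginine and lysine. Slc1 proteins take up glutamate or small neutral amino acids, and Slc36 proteins carry small amino acids with protons. The products of Slc43a1 and Slc43a2 let large neutral amino acids diffuse. Uptake of leucine and glutamine feeds the lysosomal sensing machinery that switches on mTORC1 and muscle protein synthesis.

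Total counts per library lay between 19522947 and 25608659. No library of the 9 held a read of Gprc6a, the gene deleted, which gives no check of the genotypes. Knockout titles name Gprc5a where the genotype and description name Gprc6a. Summed muscle fibre markers (7 of 7 found) stood at 136882 to 179449 CPM, counts scaled to one common library total, in knockouts and 128548 to 170147 CPM in controls. Adipocyte markers (10 of 10 found, none at 0) summed to 700.2 to 875 CPM in knockouts and 715 to 1483 CPM in controls, where controls 4 and 5 stood apart at 1483 and 1324 CPM. Control 3, at 1025 CPM, also lay above every knockout. Cd36 alone gave 373 to 435 CPM of the knockout sums and 370 to 543 CPM of the control sums. Erythroid markers (7 of 7 found, Hbb-b1, Hbb-b2 and Hemgn at 0) summed to 68.8, 68.1, 368 and 139 CPM in knockouts 1 to 4. In controls they summed to 54.0 to 77.4 CPM, a range that held knockouts 1 and 2. Beta-s made up most of each sum, at 335 CPM in knockout 3. Keratinocyte markers (5 of 5 found, none at 0) summed to 145 CPM in control 2, 90.0 CPM in knockout 2 and 34.2 CPM in knockout 1. Every other library was at 3.67 to 6.10 CPM, and the part of such RNA in the transporter levels was not tested. A fall in the number of cells of one type and less RNA per cell cannot be told apart in such bulk muscle.

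Of the 40 transporter genes, 27 had enough counts for the test (at least about 10 counts in as many libraries as the smaller group holds) and 13 did not. By edgeR's quasi-likelihood test with Benjamini-Hochberg adjustment over 13198 genes, 0 of the 27 were higher and 0 were lower in knockout muscle, beside 0% of all tested genes in each direction. The lowest adjusted p among them was 0.967. Without adjustment, p was under 0.05 for 2 of 27, Slc38a2 lower (beside 1.8% of all tested genes lower) and Slc7a11 higher (beside 1.38% higher), which is 3.17% of all tested genes in both directions. DESeq2 called 0 of the 27, beside 0.0531% of all genes it tested, and limma-voom called 0, beside 0%. Without adjustment, DESeq2 gave 3 of the 27 a p under 0.05, beside 3.49% of all genes, and limma-voom gave 2, beside 5.16%. In none of the 27 did the knockout and control libraries fall into separate ranges, beside 0.811% of all tested genes (0.439% higher and 0.371% lower). The log2 fold change, knockout minus control, was below 0 in 16 and above 0 in 11, beside 50.6% of all genes below 0. Its median was -0.066 over the 27 and -0.002 over all tested genes, and it ranged from -1.04 for Slc36a2 to 0.77 for Slc7a11.

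The promoters of the 2 genes with an unadjusted p under 0.05 are shown. Both are known targets of ATF4, the factor that raises transporter genes when amino acids run short. Their differences lay in opposite directions, and a part of ATF4 in them was not tested. Windows of 250 bases before the annotated start were taken from RefSeq (GRCm38.p6), and 29 of the 40 genes had at least 1 there. Capitals mark TGATGNAA on either strand, the core of the C/EBP-ATF response element that ATF4 binds, and no match of it overlapped another.
Slc38a2, chr15:96699729-96699978, minus strand: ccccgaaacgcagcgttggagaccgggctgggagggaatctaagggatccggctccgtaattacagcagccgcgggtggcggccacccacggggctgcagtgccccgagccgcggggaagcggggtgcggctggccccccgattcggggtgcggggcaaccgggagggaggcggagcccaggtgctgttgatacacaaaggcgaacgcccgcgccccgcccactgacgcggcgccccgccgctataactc
Slc7a11, chr3:50443614-50443863, minus strand: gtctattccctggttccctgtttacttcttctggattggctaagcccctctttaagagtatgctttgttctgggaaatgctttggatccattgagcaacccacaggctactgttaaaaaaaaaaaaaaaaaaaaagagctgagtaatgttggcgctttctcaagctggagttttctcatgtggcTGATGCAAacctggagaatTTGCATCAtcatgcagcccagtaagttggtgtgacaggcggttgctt
The Slc7a11 window holds 2 matches facing each other, and the Slc38a2 window holds none. Only these 250 bases were searched, so an element elsewhere in either gene, such as in an intron, would be missed. Among the 29 genes only Slc7a11 and Slc7a7 had a match, beside 3.91% of all 27025 genes with a window. TGANTCA, a loose form of the AP-1 site with any middle base, was found for Slc38a10, Slc38a7 and Slc7a1, beside 7.82% of all genes. The letters were TGATTCA in Slc38a10 and Slc38a7 and TGACTCA in Slc7a1, and neither window shown held a match. A match describes letters and not a bound site.

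Sodium-coupled neutral transporters were prominent among the highest levels. Per length (CPM per kb of the median coding transcript in GENCODE M21), the highest means over knockouts and controls were those of Slc43a3, Slc38a2, Slc38a4, Slc38a3, Slc7a2, Slc43a2, Slc7a6 and Slc38a10. Slc38a2 stood at 36.6 ± 5.91 CPM per kb in knockouts and 54.5 ± 11.2 CPM per kb in controls (SD, n = 4 and 5), and Slc38a3 at 35.5 ± 2.94 and 34.3 ± 7.85 CPM per kb. Within either group, neighbours among Slc43a3, Slc38a2, Slc38a4 and Slc38a3 differed by less than the sum of their SDs. It also rests on the length used. Short annotated transcripts put Slc43a3 first, at 58.1 CPM per kb over all libraries, while with the longest coding transcript it stood at 14.4 CPM per kb, in place 4. Slc38a2, whose 1 coding transcript leaves no such choice, then came first at 46.6 CPM per kb.

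**Figure D1:**
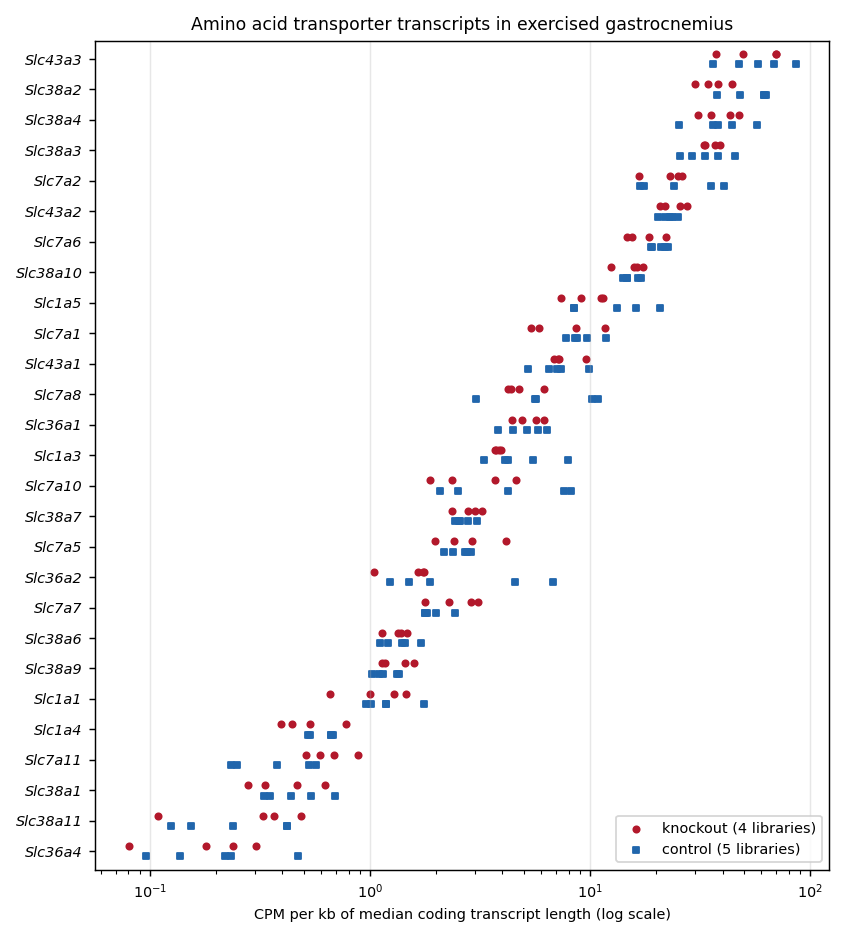
Level of the 27 tested transporter genes in each library, as CPM per kb of median coding transcript length on a log axis, with knockouts as red circles above controls as blue squares, ordered by the mean over all libraries. The groups overlap in every gene, from Slc43a3 at the top to Slc36a4 at the bottom.

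Slc38a2 encodes SNAT2, a sodium-coupled carrier of small neutral amino acids that cells raise on amino acid shortage. Its level was 205, 160.0, 140.2 and 177 CPM in knockouts 1 to 4, against 295, 176, 289, 286 and 224 CPM in controls 1 to 5. Knockouts 2 and 3 lay below every control, while knockouts 1 and 4 lay above control 2. The means were 171 ± 27.5 CPM in knockouts and 254 ± 52.0 CPM in controls (SD, n = 4 and 5), a log2 fold change of -0.57 (SE 0.17). It was the transporter gene with the smallest p (unadjusted p = 0.0048, adjusted p = 0.967, edgeR), and did not pass. Under all 20 other settings its value stayed between -0.68 and -0.49, with adjusted p from 0.362 to 1.

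The other well-expressed Slc38 genes had values close to 0. Slc38a3, which encodes SNAT3, a glutamine carrier that can run in either direction, was at 80.6, 90.4, 95.7 and 81.8 CPM in knockouts, against 81.9, 63.0, 93.7, 71.2 and 112 CPM in controls (log2 fold change 0.047, SE 0.15). Slc38a4, encoding SNAT4, was at 93.4, 84.5, 69.8 and 60.6 CPM in knockouts, against 113, 86.5, 70.9, 74.5 and 49.8 CPM in controls (-0.034, SE 0.21). The controls of both genes bracketed all 4 knockouts. Slc38a10 was at 64.4, 66.1, 70.4 and 50.2 CPM in knockouts, against 69.0, 67.0, 59.8, 57.0 and 59.5 CPM in controls (0.0081, SE 0.11).

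Slc38a1, Slc38a2 and Slc38a4 are neighbours on chromosome 15, with no other coding gene between them in RefSeq, as are Slc36a3, Slc36a2 and Slc36a1 on chromosome 11. These 6 were the only ones of the 40 next to another of them. Levels within both clusters were unequal. Slc38a1 stood at 0.426 ± 0.155 CPM per kb in knockouts and 0.471 ± 0.151 CPM per kb in controls, far below Slc38a2 and Slc38a4, and its log2 fold change was -0.15 (SE 0.29). Slc36a3 had 1, 1, 1 and 0 counts in knockouts and 0 counts in each control.

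Among lysosomal members of Slc38, Slc38a9, whose product reports lysosomal arginine to mTORC1, averaged 11.9 ± 1.93 CPM in knockouts and 10.6 ± 1.29 CPM in controls (log2 fold change 0.17, SE 0.14, or 0.071 without knockout 1). Slc38a7, which encodes a lysosomal glutamine exporter, averaged 9.44 ± 1.21 CPM in knockouts and 8.88 ± 0.847 CPM in controls (0.086, SE 0.12, or 0.022 without knockout 3). Both groups overlapped in these genes. Slc38a6 was at -0.041 (SE 0.18), but 41.3% of the 50-base words of its coding transcripts in GENCODE M21 also occur in other genes, so its level is uncertain. Slc38a11 was at 0.27 (SE 0.47), with under 1 CPM in every library.

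Of the Slc7 genes, the exchangers that pair with the heavy chain were mostly low or moderate, though Slc7a6 was among the 8 highest per median length. Slc7a5 encodes LAT1, which brings in leucine and other large neutral amino acids. It was at 10.2, 14.6, 6.97 and 8.48 CPM in knockouts, against 8.39, 7.65, 9.67, 9.53 and 10.1 CPM in controls. Knockout 2 was the highest of the 9 and knockout 3 the lowest, and the log2 fold change was 0.16 (SE 0.19), or -0.081 without knockout 2. Its partner Slc3a2, which is no member of the 5 families, stood at 53.4 ± 6.11 CPM in knockouts and 51.2 ± 7.25 CPM in controls (0.060, SE 0.12).

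Slc7a8, encoding the related exchanger LAT2, was at 17.4, 17.9, 19.5 and 25.2 CPM in knockouts, against 12.4, 23.0, 41.6, 23.3 and 44.2 CPM in controls. Controls 3 and 5 were the highest and control 1 the lowest of all 9 libraries. The log2 fold change was -0.53 (SE 0.32, unadjusted p = 0.12, edgeR), and -0.32 without control 5. Slc7a6, which exchanges cationic for neutral amino acids, was at 10.7, 15.2, 10.2 and 12.8 CPM in knockouts, against 15.1, 14.6, 13.2, 15.6 and 13.1 CPM in controls. All but knockout 2 lay below every control, and the log2 fold change was -0.23 (SE 0.13). Slc7a7, of the same exchange system and known from epithelia and macrophages, was at 2.07, 1.64, 2.23 and 1.27 CPM in knockouts, against 1.27, 1.74, 1.44, 1.27 and 1.30 CPM in controls. Its log2 fold change was 0.36 (SE 0.21). The summed macrophage markers (9 of 9 found, none at 0) were at 179 to 206 CPM in knockouts and 154 to 216 CPM in controls, and their part in this value was not tested.

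Slc7a11 encodes xCT, which imports cystine in exchange for glutamate and supplies glutathione synthesis. It was at 4.02, 2.99, 5.12 and 3.45 CPM in knockouts, against 3.31, 3.08, 1.36, 1.45 and 2.19 CPM in controls. Knockouts 1, 3 and 4 lay above every control and knockout 2 lay below controls 1 and 2. The log2 fold change was 0.77 (SE 0.28, unadjusted p = 0.0189, adjusted p = 0.967, edgeR), and 0.61 to 1.04 under the other settings. Slc7a11 was low, at 0.669 ± 0.158 CPM per kb in knockouts and 0.391 ± 0.155 CPM per kb in controls.

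**Figure D2:**
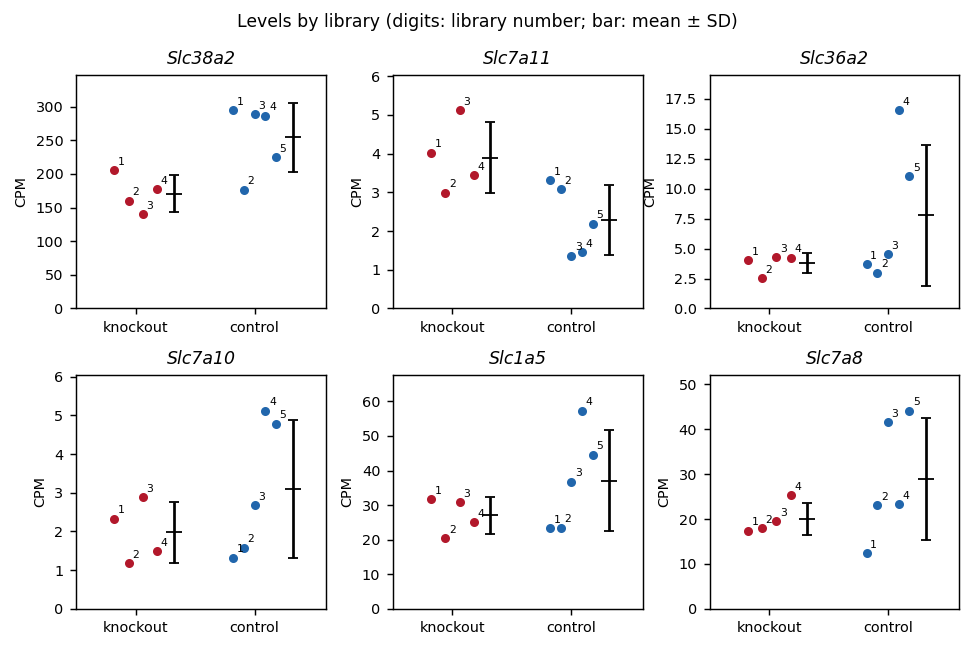
CPM of 6 transporter genes in each library, with knockouts at the left and controls at the right of each panel, library numbers beside the points and bars for the mean and SD. Slc38a2 averaged 171 CPM in knockouts and 254 CPM in controls, and controls 4 and 5 are the 2 highest libraries in Slc36a2, Slc7a10 and Slc1a5.

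The cationic amino acid carriers differed in level. Slc7a2 encodes CAT2, which carries arginine and lysine, and was at 96.6, 61.7, 92.6 and 84.9 CPM in knockouts, against 131, 62.0, 88.6, 149.9 and 64.8 CPM in controls (log2 fold change -0.24, SE 0.26). Controls 1 and 4 were above all other libraries, and the value was -0.045 without control 4. Slc7a1, encoding the widely expressed CAT1, was at 10.6, 14.4, 7.21 and 6.63 CPM in knockouts, against 14.6, 9.59, 10.8, 11.9 and 10.5 CPM in controls (-0.24, SE 0.22). Knockouts 3 and 4 were the lowest of the 9 libraries. With 1 library left out the value ran from -0.49 without knockout 2, to -0.094 without knockout 4, and it was 0.10 without control 5 and knockouts 3 and 4. In CPM per kb of the median transcript, Slc7a2 stood at 22.8 ± 4.24 in knockouts and 26.96 ± 10.7 in controls, and Slc7a1 at 7.87 ± 2.89 and 9.29 ± 1.55. The gap rests on the length used. With the longest coding transcript, the means over all libraries were 11.7 CPM per kb for Slc7a2 and 1.49 CPM per kb for Slc7a1.

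All 3 Slc43 genes were expressed, with small differences. Slc43a1 encodes LAT3, a carrier of leucine and other large neutral amino acids, and was at 18.4, 18.2, 17.4 and 24.3 CPM in knockouts, against 13.3, 25.2, 17.9, 18.8 and 16.5 CPM in controls (log2 fold change 0.090, SE 0.17). Slc43a2, encoding the similar LAT4, was at 45.6, 60.9, 56.1 and 48.2 CPM in knockouts, against 54.9, 44.6, 51.8, 50.6 and 48.3 CPM in controls (0.074, SE 0.11). Both groups overlapped in each. Slc43a3, whose human counterpart carries purine bases in place of amino acids, was at 44.6, 23.8, 31.6 and 44.8 CPM in knockouts, against 30.4, 23.0, 43.7, 37.1 and 55.1 CPM in controls (-0.066, SE 0.25).

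All 4 tested Slc1 genes had a log2 fold change below 0, beside 50.6% of all tested genes, and none passed. The values of Slc1a4 and Slc1a1 were smaller than their SE. Slc1a5 encodes ASCT2, a glutamine exchanger, and was at 31.7, 20.5, 30.9 and 25.1 CPM in knockouts, against 23.3, 23.4, 36.7, 57.4 and 44.6 CPM in controls. Controls 4 and 5 were the highest of the 9 libraries. The log2 fold change was -0.45 (SE 0.26), and -0.031 without controls 4 and 5. Slc1a3, the glutamate transporter known from astrocytes, was at 9.42, 9.69, 9.06 and 9.12 CPM in knockouts, against 13.4, 10.4, 10.1, 19.3 and 8.03 CPM in controls. The knockouts lay close together, with a coefficient of variation of 3.12% against 35.96% in controls, and the log2 fold change was -0.39 (SE 0.22), or -0.17 without control 4. The neutral exchanger Slc1a4 was at -0.19 (SE 0.22), with -0.42 without knockout 2 and -0.068 without knockout 4, and the glutamate transporter Slc1a1 at -0.14 (SE 0.24). Exons of 4430402I18Rik on the opposite strand cover 31.9% of those of Slc1a1 in GENCODE M21, and reads of such genes could not be told apart without the strand.

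Slc36a2 encodes the proton-coupled carrier PAT2 and is known as a surface marker of mouse brown adipocytes. It had the lowest log2 fold change of the 27, and its level was 4.02, 2.53, 4.27 and 4.24 CPM in knockouts, against 3.67, 2.99, 4.54, 16.6 and 11.1 CPM in controls. Only controls 4 and 5 stood far apart, while control 3 lay just above every knockout and controls 1 and 2 lay among the knockouts. The log2 fold change was -1.04 (SE 0.49, unadjusted p = 0.0569, edgeR), and 0.016 without controls 4 and 5. The thermogenic uncoupling protein Ucp1 was at 0.692, 0.211, 0.0948 and 0.424 CPM in knockouts, against 0.363, 0.607, 0.233, 16.6 and 7.03 CPM in controls. Brown adipocyte markers (6 of 6 found, none at 0) summed to 8.49 to 15.96 CPM in knockouts and 7.89 to 47.0 CPM in controls, with the 2 highest sums in controls 4 and 5. Ucp1 and Cidea, a lipid droplet protein, made up most of both sums, with Cidea at 18.4 and 10.3 CPM there and 0.996 to 2.02 CPM in the other 7 libraries. The marker Otop1 was highest in control 4 (3.22 CPM), followed by control 5. Dio2, which activates thyroid hormone, was highest in knockout 2 (9.05 CPM, against 5.22 and 5.14 CPM in controls 4 and 5). Zic1 was also highest in knockout 2, at 2.15 CPM, but nearly equal in control 4, at 2.13 CPM. Elovl3, which elongates fatty acids, was highest in control 5 (2.84 CPM). In control 4 Elovl3 was at 1.36 CPM, below knockouts 2 and 3.

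Slc7a10 encodes Asc-1, a carrier of small neutral amino acids known as a surface marker of white adipocytes, and went with the same libraries. It was at 2.33, 1.179, 2.89 and 1.48 CPM in knockouts, against 1.32, 1.58, 2.68, 5.13 and 4.79 CPM in controls. The log2 fold change was -0.64 (SE 0.43), and 0.091 without controls 4 and 5. Adiponectin (Adipoq), made by adipocytes, was at 21.5, 14.9, 25.5 and 19.99 CPM in knockouts, against 18.1, 19.99, 27.5, 62.5 and 56.7 CPM in controls. Slc7a10 shares 17.9% of its exon bases with Lrp3 on the opposite strand in GENCODE M21, and the reads of both could not be told apart without the strand. Controls 4 and 5 had the highest adipocyte marker sums and also the highest levels of Slc36a2, Slc7a10 and Slc1a5, so leaving them out had to bring these 3 values towards 0 or above. The part of adipocyte RNA in the 3 differences was not tested.

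**Figure D3:**
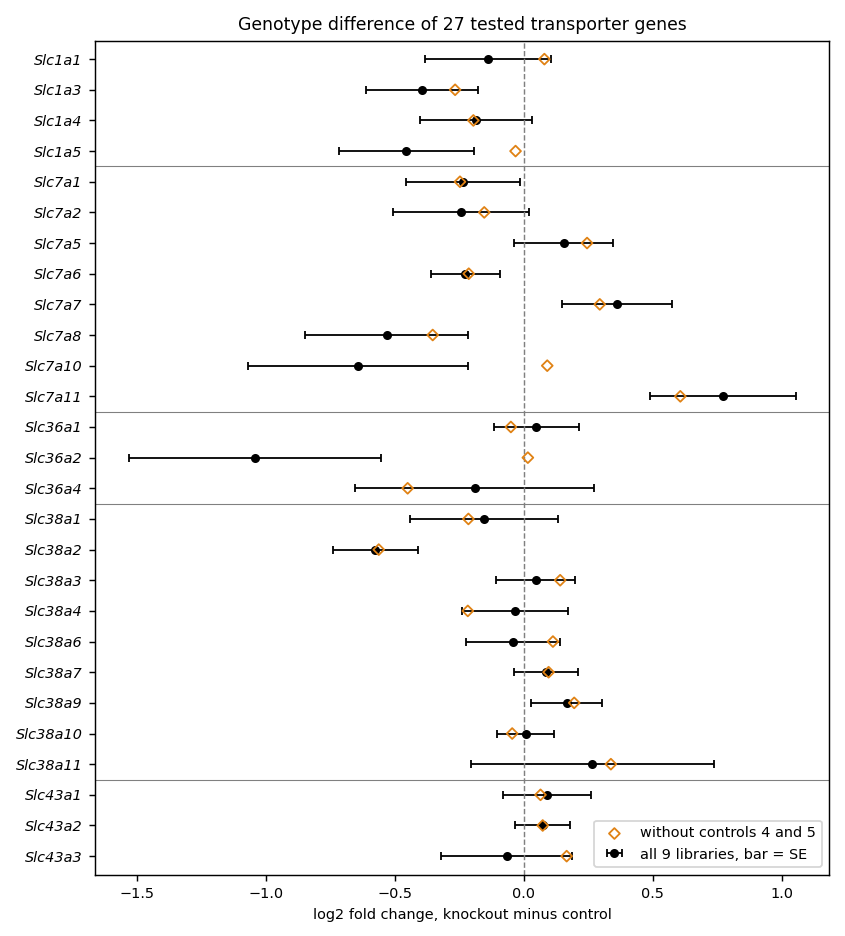
Log2 fold change, knockout minus control, of the 27 tested transporter genes by family, with bars for the SE over all 9 libraries as black circles and the value without controls 4 and 5 as open diamonds. Slc36a2 (-1.04 and 0.016), Slc7a10 (-0.64 and 0.091) and Slc1a5 (-0.45 and -0.031) differ most between both fits, while Slc38a2 stands at -0.57 and -0.56.

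The other Slc36 genes did not go with those 2 controls. Slc36a1 encodes PAT1, which carries amino acids out of lysosomes and takes part in mTORC1 signalling. It was at 7.87, 10.1, 11.05 and 8.75 CPM in knockouts, against 11.3, 10.4, 7.92, 9.26 and 6.78 CPM in controls (log2 fold change 0.049, SE 0.16). Slc36a4 averaged 0.833 ± 0.396 CPM in knockouts and 0.959 ± 0.603 CPM in controls (-0.19, SE 0.46), and was 0.23 without control 1, its highest library.

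The spread between control libraries differed among the transporters. Slc43a2, Slc7a6, Slc38a10 and Slc38a7 varied least there, with coefficients of variation of 7.74%, 8.03%, 8.34% and 9.53%. Their values in knockouts were 13.4%, 18.9%, 13.9% and 12.8%. Slc36a2, Slc36a4 and Slc7a10 varied most in controls, at 75.7%, 62.9% and 57.4%, and at 22.1%, 47.5% and 39.7% in knockouts. Slc36a4 had the lowest level per length of the 27.

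**Figure D4:**
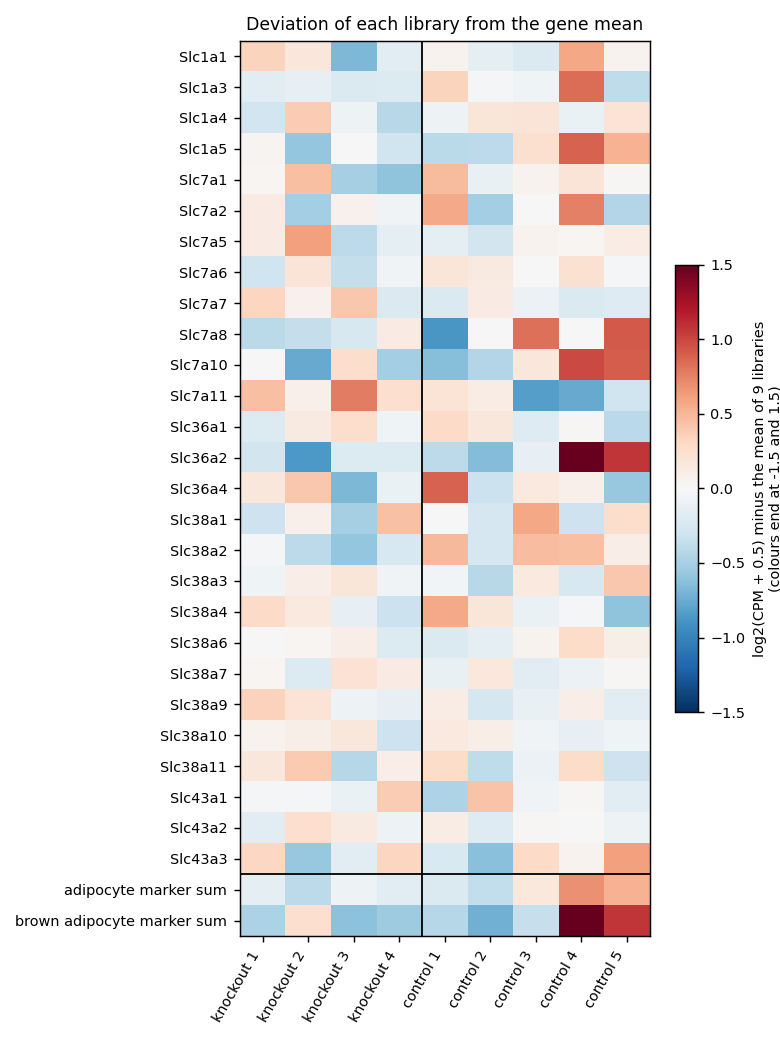
Deviation of each library from the mean of all 9 on the log2(CPM + 0.5) scale for the 27 tested transporter genes and, at the bottom, for the summed adipocyte and brown adipocyte markers, with knockouts left of controls and red above, blue below that mean. Controls 4 and 5 are the darkest red in Slc36a2 and in the brown adipocyte row, Slc7a11 is blue only in controls 3 to 5, and Slc38a2 is redder in controls 1, 3 and 4 than elsewhere.

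The 13 transporter genes under the count filter had at most 10 counts in any library. Slc38a8, Slc7a12 and Slc7a9 had 0 counts in all 9 libraries, which at these depths allows up to 0.116 to 0.159 CPM, depending on the library, for counting error only. Slc7a9 takes up cystine in kidney and gut with the heavy chain Slc3a1, which had 1 count in control 2 and 0 elsewhere. The glutamate transporter of glia, Slc1a2, had 9, 9, 4 and 2 counts in knockouts and 3, 2, 3, 9 and 2 in controls. Slc7a4 had 29 counts over the knockouts and 29 over the controls, Slc7a15 had 20 and 24, and the cationic carrier Slc7a3 had 13 and 11. The other 6 (Slc1a6, Slc1a7, Slc36a3, Slc38a5, Slc7a13 and Slc7a14) had 3 counts or fewer in every library. The groups overlapped in all 13.

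Beyond the 5 families, other genes of amino acid handling were followed as lists. Of 21 other cell surface and lysosomal amino acid transporters, 11 were tested, 0 passed in either direction and the median log2 fold change was 0.026. The smallest p in that list was of Slc6a6, which carries taurine, an abundant muscle osmolyte. It was at 92.5, 81.9, 58.0 and 91.6 CPM in knockouts, against 132, 99.2, 116, 126.2 and 85.4 CPM in controls (-0.46, SE 0.16, unadjusted p = 0.015, adjusted p = 0.967, edgeR). Only control 5 lay among the knockouts. The vesicular glutamate transporter Slc17a7 was at 0.775 ± 0.176 CPM in knockouts and 0.460 ± 0.181 CPM in controls (0.75, SE 0.34). This gene was low, from 0.182 CPM in control 4 to 0.948 CPM in knockout 3. The glycine transporter Slc6a9 was at -0.20 (SE 0.17).

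Mitochondrial amino acid carriers had 9 tested of 11, with 0 passing and a median of -0.018. Slc25a12, the aspartate-glutamate carrier of muscle, stood at 523 ± 51.0 CPM in knockouts and 549 ± 38.6 CPM in controls (-0.070, SE 0.095). The 3 of smallest p were the serine carrier Sfxn1 (-0.49, SE 0.27), Sfxn3 (0.19, SE 0.12) and the glutamate carrier Slc25a22 (0.11, SE 0.13). Sfxn1 was highest in controls 4 and 5, at 10.98 and 7.28 CPM.

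Genes that sense amino acids for mTORC1 (30 of 30 tested) had a median of -0.044 with 20 below 0, beside 50.6% of all tested genes, and 0 passed. Rptor, the scaffold of mTORC1, was at -0.21 (SE 0.11), and the folliculin partners Fnip1 and Fnip2 at -0.43 (SE 0.24) and -0.21 (SE 0.12). Genes of the ATF4 amino acid response had 24 tested of 26, with 0 passing and a median of -0.015. Atf4 itself averaged 278 ± 33.5 CPM in knockouts and 271 ± 40.3 CPM in controls (0.036, SE 0.13).

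Of that list, the secreted glycoprotein Stc2 was at -0.79 (SE 0.32), the asparaginyl-tRNA synthetase Nars at 0.13 (SE 0.075) and the amino acid shortage kinase Eif2ak4 at -0.30 (SE 0.18). Nars was the only gene of these lists whose groups did not overlap, at 136 to 148 CPM in knockouts and 124 to 135 CPM in controls, beside 0.811% of all tested genes. Enzymes of glutamine and glutamate turnover had 7 tested of 8, with a median of -0.090 and 0 passing. All 7 values were below 0, beside 50.6% of all tested genes, but that of Got1 was -0.00019 (SE 0.13). The smallest p of these enzymes were of Glud1 (-0.090, SE 0.076) and Gpt2 (-0.15, SE 0.16), and only the value of Glud1 exceeded its SE.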

How the data were processed

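RNA was amplified with a NuGEN Ovation kit from samples with an integrity number of at least 6.7, per the labels' protocols. The authors deposited raw read counts per gene symbol, made with bcl2fastq 1.8.4, Bowtie 0.12.7, TopHat and HTSeq 0.6.1 on mm9, per the submitters' processing notes; for annotation and strand setting, nothing is given in the sources used here. Counts were tested in R 4.3.3 with edgeR 4.0.16 (filterByExpr with a minimum count of 10, TMM scaling, estimateDisp, robust glmQLFit and glmQLFTest), with adjusted p under 0.05 as threshold. SE is the log2 fold change over the root of F. DESeq2 1.42.0 and limma 3.58.1 (voom with quality weights) were alternatives. The steps were tested on simulated counts. Genes with values by library were the 8 highest per length, the 8 of smallest p, Slc36a2, where a library stood apart, and 10 chosen for their roles; for each other list, up to 3 of smallest p, while Slc25a12 and Atf4 were chosen after their values were seen. The members and lists were chosen with earlier results of these data known. Of 176 listed symbols 175 were found, 8 by RefSeq synonym. Libraries of a group were no duplicates (chi-square per degree of freedom 17.5 to 96.8). Lengths, exon overlap and 50-base words came from GENCODE M21 (GRCm38), another build than the authors' mm9. Floors of 3 counts leave amplification out of account, since copies of one molecule are counted more than once.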

Additional observations from a re-analysis of the deposited data

Results flagged for a closer look

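In 3 of 54 groups of libraries (27 genes in 2 genotypes) one library stood apart from the rest by Dixon's criterion, where chance flags about 1 in 20. Slc36a2 was at 2.53 CPM in knockout 2, below 4.02 to 4.27 CPM in the other knockouts. Slc43a1 was at 24.3 CPM in knockout 4, above 17.4 to 18.4 CPM in the other knockouts. Slc1a1 was at 6.67 CPM in control 4, above 3.65 to 4.49 CPM in the other controls. Of these, the value of Slc36a2 also stood apart on the log2 scale.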

How the results depend on the processing

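Of the 27 tested transporters, 0 passed under any of the settings tried, and of the other listed genes 0 passed as well. Over all genes, 7 passed with DESeq2 and 1 with a replicate block on the label number, against 0 in edgeR. The numbers were not taken to pair the libraries, since deviations of same-numbered libraries correlated by -0.082 to 0.47, within the range of other-numbered libraries (-0.52 to 0.56). The median over the members was -0.066, -0.15 to -0.0072 with single libraries left out, 0.016 without controls 4 and 5, and 0.026 without control 5 and knockouts 3 and 4. In 9 of 27 genes, among them Slc38a2 and Slc7a11, no setting turned the sign. The sign turned in the other 18, among them Slc36a2 and Slc7a10 without controls 4 and 5; the cause was not tested. With library totals only Slc38a10 was at -0.010, and with limma-voom Slc38a4 at 0.048. With the replicate block Slc36a1 was at -0.039, Slc38a10 at -0.016 and Slc43a3 at 0.10. Without controls 4 and 5 Slc1a1 was at 0.080, Slc36a1 at -0.049, Slc36a2 at 0.016, Slc38a10 at -0.044, Slc38a6 at 0.11, Slc43a3 at 0.17 and Slc7a10 at 0.091. Without control 5 and knockouts 3 and 4 Slc1a1 was at 0.16, Slc1a4 at 0.036, Slc36a1 at -0.11, Slc36a4 at 0.049, Slc38a4 at 0.048, Slc38a6 at 0.013, Slc38a7 at -0.036, Slc43a1 at -0.037, Slc43a3 at 0.026 and Slc7a1 at 0.10. With single libraries left out, Slc1a1 ranged from -0.30 to 0.040, Slc36a1 from -0.036 to 0.14, Slc36a4 from -0.47 to 0.23, Slc38a1 from -0.39 to 0.037, Slc38a10 from -0.052 to 0.10, Slc38a11 from -0.010 to 0.54, Slc38a3 from -0.041 to 0.18, Slc38a4 from -0.15 to 0.13, Slc38a6 from -0.11 to 0.046, Slc43a1 from -0.030 to 0.23, Slc43a2 from -0.0025 to 0.14, Slc43a3 from -0.20 to 0.11 and Slc7a5 from -0.081 to 0.29. The sign held there for Slc1a3 (-0.50 to -0.17), Slc1a4 (-0.42 to -0.068), Slc1a5 (-0.58 to -0.24), Slc36a2 (-1.25 to -0.56), Slc38a2 (-0.68 to -0.49), Slc38a7 (0.022 to 0.17), Slc38a9 (0.071 to 0.24), Slc7a1 (-0.49 to -0.094), Slc7a10 (-0.89 to -0.38), Slc7a11 (0.61 to 0.94), Slc7a2 (-0.37 to -0.045), Slc7a6 (-0.35 to -0.15), Slc7a7 (0.25 to 0.49) and Slc7a8 (-0.72 to -0.32). Of the 8 genes highest per length, 7 stayed with the longest transcript as length, where Slc1a5 came in and Slc7a6 fell to place 11. All 8 stayed with totals only. At 4 against 5 libraries, the differences of Slc36a4 and Slc38a11, both under 2 CPM in every library, were smaller than their SE.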
